A study of Mus musculus with 6 samples.

Results

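The genes described here are 10 genes of MHC class I antigen processing, *B2m*, *H2-K1*, *H2-D1*, *Tap1*, *Tap2*, *Tapbp*, *Nlrc5*, *Psmb8*, *Psmb9* and *Psmb10*, chosen by name out of the 56262 genes of the deposited count table. All 10 were among the 17120 genes with enough counts to be tested. They were compared between the lungs of 3 R/R mice and 3 WT mice. R/R mice are homozygous for a CRISPR knock-in on the C57BL/6 background that puts K329R and K332R into RBM47 in every cell. WT animals were littermates without the substitutions. Both genotypes were 8 weeks of age and untreated, and RNA of the lung tissue was read as pairs of 150 bases. RBM47 is an RNA-binding protein, and the substitutions replace lysines at a site where the ubiquitin-like protein ISG15 is attached.

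MHC class I molecules present peptides from inside the cell to CD8+ T cells and are read by receptors of NK cells. Proteins are cut by the proteasome, whose catalytic subunits are exchanged for *Psmb8*, *Psmb9* and *Psmb10* in the immunoproteasome. The TAP transporter carries the peptides into the endoplasmic reticulum, where tapasin and its partners load them onto a heavy chain paired with β2-microglobulin. NLRC5 is the transactivator of the class I genes, and IFNs raise the expression of most of the pathway.

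None of the 10 genes passed the test of R/R against WT lungs at a Benjamini-Hochberg adjusted p of 0.05 in edgeR's quasi-likelihood test, in which 1.75% of all tested genes passed. DESeq2, limma-voom and edgeR's exact test called none of them either. Their log2 fold changes of R/R over WT lay between -0.12 and 0.16. *H2-K1* alone of the 10 had an unadjusted p under 0.05, against 14.2% of all tested genes. The 95% intervals of all 10 genes lay between 0.809-fold and 1.23-fold, so larger differences in the genotype means were outside them. Of the 10, 7 had a log2 fold change above 0, against 51.2% of all tested genes, and their median was 0.07 against a median of 0.0045 over all tested genes. The absolute log2 fold change was above that of *H2-K1*, the member farthest from 0, in 37.7% of all tested genes.

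The plot of CPM by lung shows these values. CPM gives the read pairs counted on a gene relative to all those counted in that lung, after TMM scaling, and is not corrected for gene length.

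**Figure D1:**
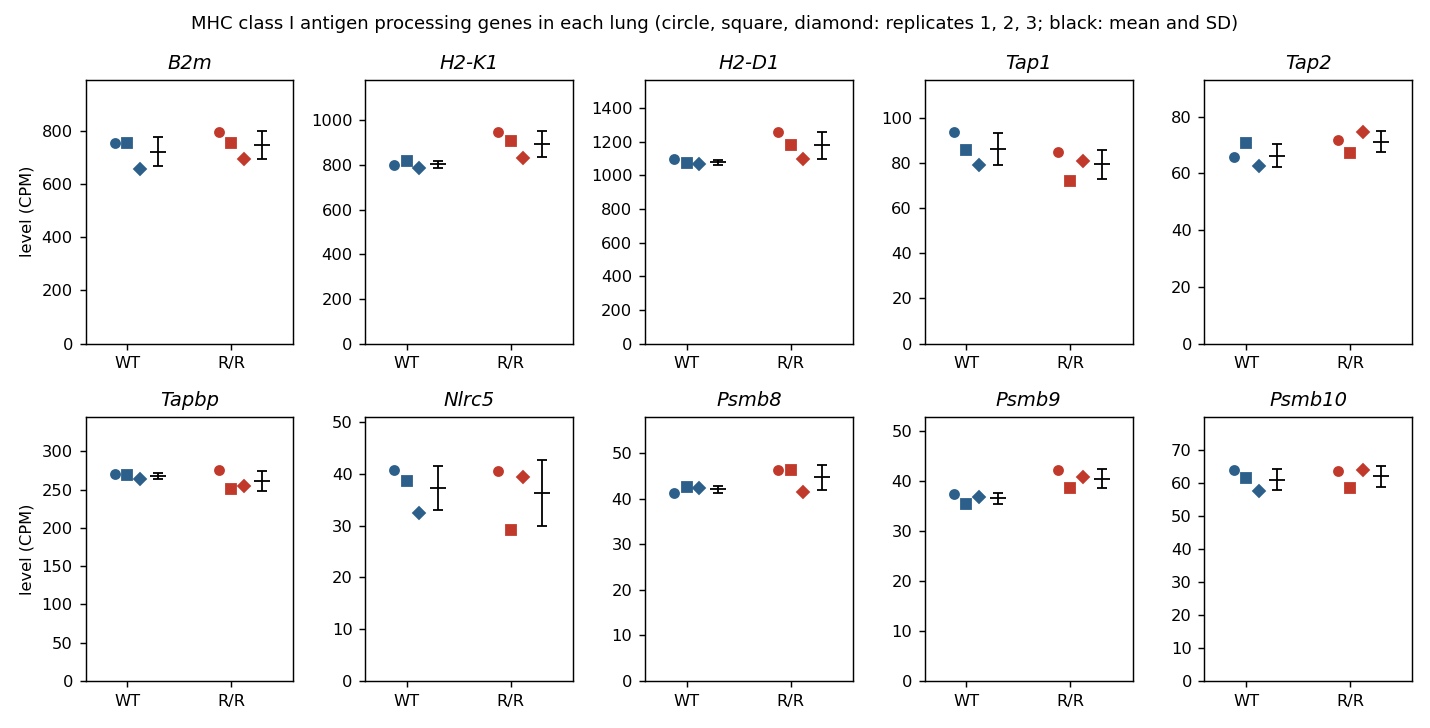
CPM of the 10 class I genes in each lung, on axes that start at 0, with WT lungs in blue and R/R lungs in red. Circles, squares and diamonds stand for replicates 1, 2 and 3, which were not treated as pairs in the main fit. The black bars give the mean and SD of 3 lungs. R/R and WT lungs overlap for 7 of the 10 genes, and the lowest R/R lung lies just above the highest WT lung for *H2-K1*, *H2-D1* and *Psmb9*.

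Between 16501092 and 18141067 read pairs were counted on genes per lung, and 3 counts corresponded to 0.165 to 0.182 CPM. Every member held at least 487 counts in each lung, and the common coefficient of variation between lungs of a genotype was 8.62%. *Rbm47* itself was at 32.7, 33.5 and 34.1 CPM in R/R lungs and 28.8, 30.5 and 34.4 CPM in WT lungs (log2 fold change 0.10 ± 0.08 SE, edgeR adjusted p = 0.660). Counts per gene cannot show the 2 substitutions, so they do not check the labels. The study describes the 3 lungs of a genotype as biological replicates, and the edgeR p-values set the difference between genotypes against the spread between such lungs.

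Of the 10 genes, 7 lie on chromosome 17 in the MHC region. *H2-K1* (ENSMUSG00000061232.16) lies at chr17:33996017-34000347 on the minus strand and *H2-D1* (ENSMUSG00000073411.12) at chr17:35262730-35267499 on the plus strand, in GRCm38. *Tapbp* (chr17:33915899-33929292), *Psmb9* (chr17:34181987-34187764), *Tap1* (chr17:34187553-34197225), *Psmb8* (chr17:34197721-34201454) and *Tap2* (chr17:34203527-34216321) lie near *H2-K1*. *B2m* lies on chromosome 2 at chr2:122147686-122153083, and *Nlrc5* (chr8:94434356-94527272) and *Psmb10* (chr8:105935735-105938444) lie on chromosome 8.

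The class I genes are known for a shared arrangement of control elements before the start site, including a κB site, an IFN-stimulated response element and an SXY module to which NLRC5 is recruited. Sequences are shown for *H2-K1* and *B2m*, the heavy chain with the lowest p and its common partner, and for the core that *H2-K1* shares with *H2-D1*. They come from RefSeq (GRCm38.p6), in which 8 of the 10 genes had an entry, and the entries for *Tap2* and *Nlrc5* are missing. Capitals mark matches, on either strand, to GGGNNTTCC (a κB form), GAANNGAAA or GAAANNGAA (IFN response elements with different spacing), TTCNNNGAA (GAS), TGACG (the core of site α in the SXY module) and CCAAT.
H2-K1 upstream, chr17:34000348-34000533, minus strand: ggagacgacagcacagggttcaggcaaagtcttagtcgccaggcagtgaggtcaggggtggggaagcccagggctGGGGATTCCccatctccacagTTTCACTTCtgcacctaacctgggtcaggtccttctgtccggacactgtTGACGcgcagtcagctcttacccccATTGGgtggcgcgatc
B2m upstream, chr2:122147487-122147685, plus strand: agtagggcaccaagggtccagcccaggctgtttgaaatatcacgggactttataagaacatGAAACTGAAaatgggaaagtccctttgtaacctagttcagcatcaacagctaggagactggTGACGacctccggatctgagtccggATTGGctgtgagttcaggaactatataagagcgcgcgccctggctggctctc
H2-K1 core, chr17:34000429-34000458, minus strand: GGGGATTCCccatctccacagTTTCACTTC
H2-D1 core, chr17:35262923-35262952, plus strand: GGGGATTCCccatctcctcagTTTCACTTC

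The cores of *H2-K1* and *H2-D1* differed by 1 substitution, A18T, with the base of *H2-K1* first and positions counted from the first base shown. Over the 250 bases before each start site, 169 of 204 aligned bases were identical (82.8%), with a longest shared run of 47 bases. *H2-K1* and *H2-D1* each held GGGNNTTCC, GAANNGAAA, TGACG and CCAAT, and *B2m* held GAAANNGAA, TGACG and CCAAT. *Tap1* and *Psmb9* start 225 bases apart and run in opposite directions, so their windows cover nearly the same bases. Both windows held the same TGACG and the same CCAAT, read on opposite strands. *Psmb8* held TTCNNNGAA, *Tapbp* held 2 matches to CCAAT, and *Psmb10* held none of these letters in this window. Among 32851 windows of 250 bases before a start site, 4.98% held GGGNNTTCC, 6.31% GAANNGAAA, 7.13% GAAANNGAA, 7.02% TTCNNNGAA, 17.8% TGACG and 33.8% CCAAT. Matches overlap between GAANNGAAA and GAAANNGAA where both fit. The *H2-D1* core lies inside an exon of the annotation used for counting, which starts *H2-D1* earlier than RefSeq does, and exon bases were left out of the longer sequences shown. A match describes the letters and shows no binding.

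The heavy chains and β2-microglobulin held most of the counts of the 10 genes. *H2-K1*, which encodes the classical heavy chain H-2K, was at 946, 910 and 832 CPM in R/R lungs and 802, 820 and 788 CPM in WT lungs. All 3 R/R lungs were above all 3 WT lungs, by a margin between the nearest lungs that was smaller than the SD of the R/R lungs. The means were 896 ± 58.2 and 803 ± 16.0 CPM (SD, n = 3 each), a log2 fold change of 0.16 ± 0.07 (SE, 95% interval 0.01 to 0.30), with an unadjusted p of 0.0380 and an edgeR adjusted p of 0.315.

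*H2-D1*, which encodes the classical heavy chain H-2D, was at 1255, 1181 and 1098 CPM in R/R lungs and 1094, 1072 and 1066 CPM in WT lungs. Again the groups did not overlap, with the lowest R/R lung next to the highest WT lung. The log2 fold change was 0.13 ± 0.07 (SE, 95% interval -0.02 to 0.28), with an edgeR adjusted p of 0.439. Lungs of the genotypes did not overlap, in either direction, for 18.7% of all tested genes, and R/R was the higher one for 9.17%.

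*B2m*, which encodes β2-microglobulin, the light chain of class I molecules, was at 795, 756 and 693 CPM in R/R lungs and 757, 753 and 659 CPM in WT lungs. The groups overlapped over most of their range. The log2 fold change was 0.05 ± 0.08 (SE, 95% interval -0.12 to 0.22), with an edgeR adjusted p of 0.841, and it was -0.016 without WT replicate 3.

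The transport and loading genes had means on different sides of WT, and none passed the test. *Tap1*, which encodes one chain of the peptide transporter, was at 84.9, 72.1 and 80.9 CPM in R/R lungs and 93.4, 85.6 and 79.1 CPM in WT lungs. The lungs overlapped (log2 fold change -0.12 ± 0.08 SE, edgeR adjusted p = 0.559). *Tap2*, which encodes the other chain, was at 72.0, 67.2 and 74.5 CPM in R/R lungs and 65.7, 70.6 and 62.5 CPM in WT lungs. These lungs overlapped too, with the mean on the other side (log2 fold change 0.10 ± 0.07 SE, edgeR adjusted p = 0.547).

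*Tapbp*, which encodes tapasin, the bridge between TAP and the empty heavy chain, was at 276, 251 and 255 CPM in R/R lungs and 271, 269 and 264 CPM in WT lungs. R/R replicate 1 was the highest of the 6 lungs and the other two R/R lungs were the lowest (log2 fold change -0.04 ± 0.06 SE, 95% interval -0.16 to 0.09, edgeR adjusted p = 0.838). This was the narrowest interval among the 10 genes.

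*Nlrc5*, the class I transactivator, was at 40.7, 29.1 and 39.3 CPM in R/R lungs and 40.8, 38.7 and 32.6 CPM in WT lungs. It had the widest interval of the 10 genes (log2 fold change -0.04 ± 0.12 SE, 95% interval -0.31 to 0.23, edgeR adjusted p = 0.937). R/R replicate 2 was the lowest lung, and without it the log2 fold change was 0.10. Without WT replicate 1 it was 0.03.

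All 3 immunoproteasome subunits had a mean above that of WT lungs, and none passed the test. *Psmb8*, which replaces the chymotrypsin-like subunit *Psmb5*, was at 46.3, 46.3 and 41.5 CPM in R/R lungs and 41.2, 42.5 and 42.4 CPM in WT lungs (log2 fold change 0.09 ± 0.07 SE, edgeR adjusted p = 0.634). R/R replicate 3 lay among the WT lungs.

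*Psmb9*, which replaces the caspase-like subunit *Psmb6*, was at 42.3, 38.6 and 40.8 CPM in R/R lungs and 37.5, 35.4 and 36.9 CPM in WT lungs. The groups did not overlap (log2 fold change 0.15 ± 0.07 SE, 95% interval -0.00 to 0.30, edgeR adjusted p = 0.366). *Psmb10*, which replaces the trypsin-like subunit *Psmb7*, was at 63.6, 58.3 and 63.8 CPM in R/R lungs and 63.9, 61.4 and 57.4 CPM in WT lungs. Its lungs overlapped (log2 fold change 0.02 ± 0.07 SE, edgeR adjusted p = 0.924), and without WT replicate 3 the value was -0.019.

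**Figure D2:**
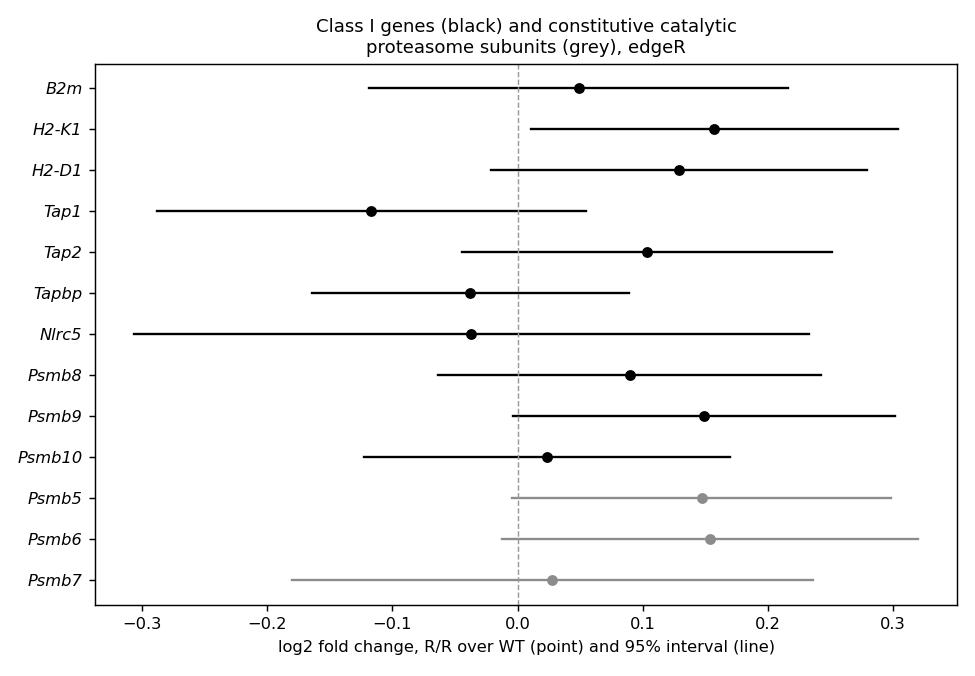
Log2 fold change of R/R over WT from edgeR (points) with 95% intervals (lines) for the 10 class I genes in black and the constitutive subunits *Psmb5*, *Psmb6* and *Psmb7* in grey; the dashed line marks no difference. The interval of *H2-K1* (0.01 to 0.30) lies above 0 before adjustment, and those of the other 12 genes reach or cross it.

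Levels of different genes are set side by side per kilobase of annotated exon. This length joins the exons of all annotated transcripts of a gene, so the order depends in part on the annotation. It was 3660 bases for *Psmb9*, 3381 for *Psmb8*, 2938 for *H2-K1* and 2579 for *H2-D1*. Their longest protein-coding transcripts had 1352, 1628, 1619 and 2102 bases. For *B2m* both lengths were 860 bases. On this scale *B2m* was highest at 855 ± 57.7 CPM per kb (SD over the 6 lungs). *H2-D1* followed at 437 ± 28.96, *H2-K1* at 289 ± 21.6, *Tapbp* at 72.9 ± 2.61 and *Psmb10* at 36.0 ± 1.70 CPM per kb, and none of these neighbours had overlapping lungs. *Tap2* at 18.2 ± 1.17 CPM per kb overlapped with *Tap1* at 15.1 ± 1.31, and *Tap1* with *Psmb8* at 12.8 ± 0.693, so the order of these neighbours is within the spread of the lungs. *Psmb9* was at 10.5 ± 0.698 and *Nlrc5* was lowest at 4.34 ± 0.573 CPM per kb. *B2m* was above 99.9% and *Nlrc5* above 47.5% of all tested genes on this scale.

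Several members were high or low in the same lungs. R/R replicate 1 was the highest of the 6 lungs for 6 of the 10 genes, and WT replicate 3 was the lowest for 5. The 10 genes together took 0.361% of the counts in R/R replicate 1, 0.337% and 0.325% in the other two R/R lungs, 0.326% and 0.324% in WT replicates 1 and 2 and 0.308% in WT replicate 3. The median log2 fold change of the 10 genes was 0.03 without R/R replicate 1 and 0.02 without WT replicate 3, and in the latter case 5 of the 10 genes were above 0.

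Ratios of genes within a lung do not depend on scaling between lungs. They are given from counts per kb of annotated exon, so their size depends on the annotation too. Each was compared by an exact two-sided permutation test of 3 against 3 lungs, which cannot go below p = 0.1. Adjustment was over the 6 ratios. *Psmb8* over *Psmb5* was 0.268, 0.263 and 0.252 in R/R lungs and 0.280, 0.278 and 0.260 in WT lungs (log2 difference -0.06, permutation p = 0.3, adjusted p = 0.6). *Psmb9* over *Psmb6* was 0.342 ± 0.0234 in R/R and 0.345 ± 0.0364 in WT lungs (SD; permutation p = 0.9), and *Psmb10* over *Psmb7* was 3.401 ± 0.397 and 3.43 ± 0.546 (permutation p = 1). *Psmb5*, *Psmb6* and *Psmb7* had log2 fold changes of 0.15, 0.15 and 0.03, beside 0.09, 0.15 and 0.02 for the subunits that replace them.

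*Tap1* over *Tap2* was 0.814, 0.741 and 0.751 in R/R lungs and 0.982, 0.837 and 0.873 in WT lungs. The highest R/R lung was below the lowest WT lung (log2 difference -0.22). The exact permutation p of 0.1 is the smallest this design allows, and it was 0.6 after adjustment. *H2-K1* over *H2-D1* was 0.668 ± 0.00748 in R/R and 0.655 ± 0.0149 in WT lungs (SD; permutation p = 0.3). *B2m* over the sum of both heavy chains was 1.14, 1.14 and 1.14 in R/R lungs and 1.26, 1.26 and 1.12 in WT lungs (log2 difference -0.09, permutation p = 0.4), and WT replicate 3 lay just below the R/R lungs.

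**Figure D3:**
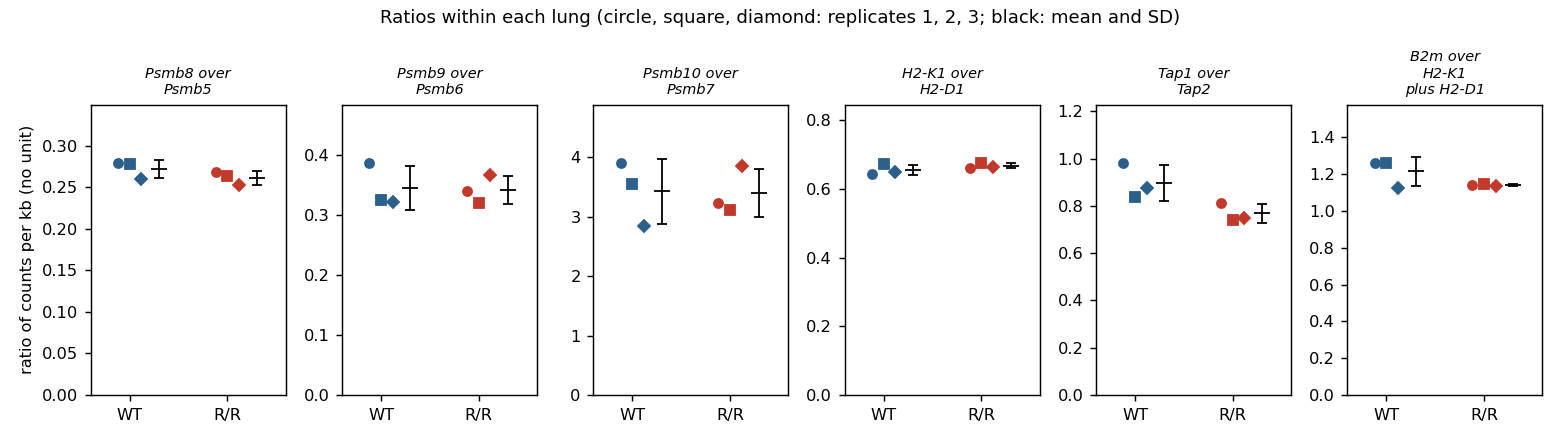
Ratios of counts per kb within each lung, on axes that start at 0, with WT in blue and R/R in red, circles, squares and diamonds for replicates 1, 2 and 3 and black bars for the mean and SD of 3 lungs. *Tap1* over *Tap2* is the ratio whose genotypes do not overlap, from 0.741 to 0.814 in R/R and from 0.837 to 0.982 in WT lungs.

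The counting affects some members. *Tap1* and *Psmb9* share 212 exon bases on opposite strands, which are 3.87% and 5.79% of their exon bases, and pairs on bases of 2 genes were not counted. *Tapbp* shares 149 exon bases (4.11%) with *Zbtb22* and 904 (24.9%) with the predicted gene *Gm19412*, which held 3 counts over the 6 lungs. *Tap2* shares 14.1% of its exon bases with *Gm15821* and 4.36% with *Gm20496*, *Psmb8* shares 14.7% with *Gm20496*, and *Nlrc5* shares 0.918% with *9330175E14Rik*. Stretches of 150 bases were searched for in transcripts of other genes, in the transcript direction and for the longest protein-coding transcript of each member only. Of those of *H2-D1*, 1.79% also occur in *H2-Q1*, and none were found for the other 9 genes. This search could not find sharing with the opposite strand or sharing of exons outside that transcript. The part of these overlaps in the values was not tested.

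The other genes of the pathway were read from lists of known genes. Among 13 genes of peptide loading and trimming, 3 had a log2 fold change above 0 and 10 below, with a median of -0.06, and none was called by edgeR (1 higher and 2 lower at an unadjusted p under 0.05, and 1 called by each of DESeq2 and edgeR's exact test). *Calr*, the chaperone calreticulin, had the lowest value (380 ± 34.8 against 462 ± 18.0 CPM, log2 fold change -0.28 ± 0.07 SE, edgeR adjusted p = 0.0840). Among 23 constitutive and shared proteasome genes, 20 were above 0 and 3 below, with a median of 0.10. None was called by edgeR, DESeq2, limma-voom or the exact test (2 higher at an unadjusted p under 0.05). The genotypes did not overlap in 6 of the 23 with R/R higher and in 2 with R/R lower, against 9.17% and 9.50% of all tested genes. Of all tested genes, 51.2% were above 0, and 6.54% were higher and 7.68% lower at an unadjusted edgeR p under 0.05.

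Of 21 tested class I-like chains, 13 were above 0 and 8 below with a median of 0.06, and 1 was called lower in R/R lungs, against 1.10% of all genes called lower and 0.648% called higher. DESeq2, the exact test and the replicate block each called 2, and the fit with no filter called 3. *H2-T24*, a nonclassical class I gene, was at 43.7, 46.0 and 46.3 CPM in R/R lungs and 66.1, 66.1 and 55.6 CPM in WT lungs. The groups did not overlap (log2 fold change -0.47 ± 0.08 SE, edgeR adjusted p = 0.0158). The adjusted p was 0.0683 without R/R replicate 2, 0.0684 without WT replicate 1 and 0.0566 without WT replicate 2, with a log2 fold change between -0.55 and -0.43 whichever lung was left out. Whether *H2-T24* shares stretches with other class I genes was not tested. *H2-Q10*, another class Ib gene, had the largest absolute log2 fold change of the list and was not called (1.92 ± 0.8002 against 5.55 ± 2.47 CPM, log2 fold change -1.52 ± 0.38 SE, edgeR adjusted p = 0.0751). Its lungs overlapped, at 2.72, 1.91 and 1.12 CPM in R/R and 6.86, 2.70 and 7.08 CPM in WT.

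Of 21 tested regulators of class I genes, 9 were above 0 and 12 below, and none was called by edgeR, DESeq2, limma-voom or the exact test (1 higher and 1 lower at an unadjusted p under 0.05). *Irf1*, an IFN-induced activator of class I promoters, was at 98.0 ± 5.56 CPM in R/R and 94.5 ± 3.49 CPM in WT lungs. *Ifng*, at 0 to 6 counts per lung, was not tested.

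Class I genes are IFN-induced, so other IFN-induced genes are set beside them. Of 20 tested IFN-γ-induced genes, 11 were above 0 and 9 below with a median of 0.02, and edgeR called none (1 higher at an unadjusted p under 0.05, and 1 called by the exact test). This median changed sign with the lung left out. It was -0.053 without R/R replicate 1, -0.063 without R/R replicate 3, -0.016 without WT replicate 2 and -0.061 without WT replicate 3, where 15 of 20 genes were below 0, and 0.083 without WT replicate 1. *Gbp2*, an IFN-γ-induced GTPase, had 71.5 ± 4.69 CPM in R/R and 59.5 ± 2.55 CPM in WT lungs (log2 fold change 0.26 ± 0.07 SE, edgeR adjusted p = 0.0830). Of 20 type I IFN-induced genes, all 20 were below 0 with a median of -0.37. In R/R lungs 4 were called lower, *Oas3*, *Oasl2*, *Rsad2* and *Irf7*, against 1.10% of all tested genes. These genes take part in the antiviral response, *Irf7* as a transcription factor. In 12 of the 20 the genotypes did not overlap, each with R/R lower, against 9.50% of all tested genes. At an unadjusted p under 0.05, 15 were lower, against 7.68% of all tested genes, and none higher, against 6.54%.

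The count of 4 was 2 without R/R replicate 1, 0 without R/R replicate 2, 1 without WT replicate 1, 2 without WT replicate 2 and 9 without WT replicate 3, and it was 6 with DESeq2, 8 with the exact test and 11 with no filter on low counts. *Irf7* was at 23.1, 27.4 and 28.3 CPM in R/R lungs and 35.8, 39.4 and 37.9 CPM in WT lungs (log2 fold change -0.52 ± 0.09 SE, edgeR adjusted p = 0.0172). In the same lungs 7 of the 10 class I genes, among them *H2-K1*, *H2-D1* and *Psmb9*, had a mean above that of WT lungs. *Tap1*, *Tapbp* and *Nlrc5* had a mean below it, and none of the 10 was called. The difference between the lists was not tested.

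**Figure D4:**
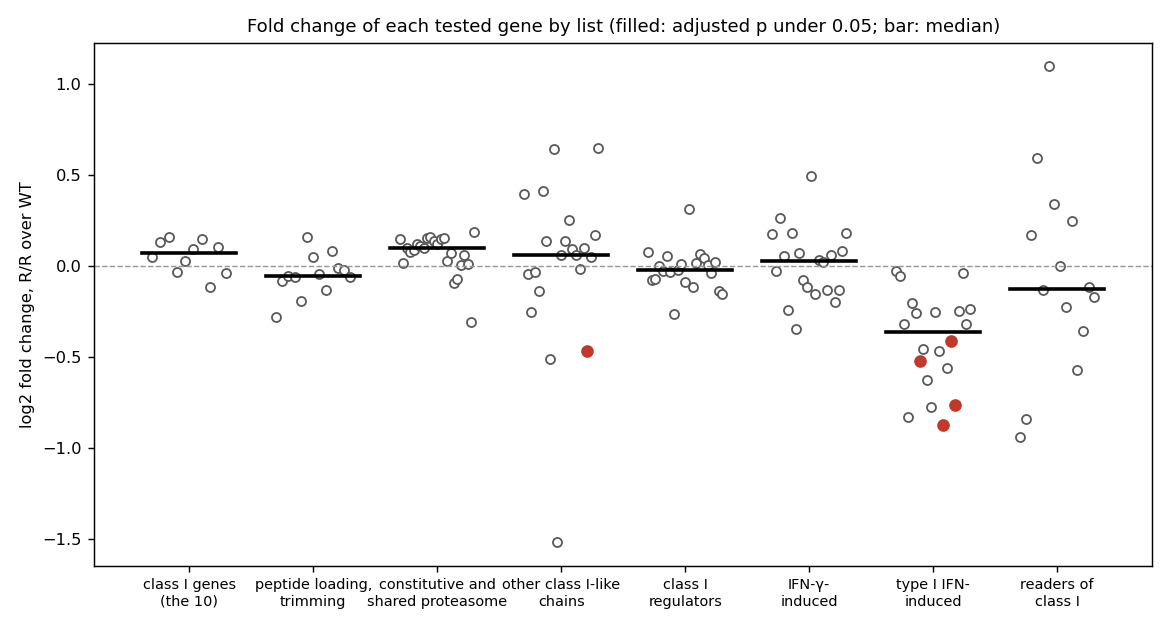
Log2 fold change of R/R over WT for each tested gene of the 10 class I genes and 7 related lists; filled red points have an edgeR adjusted p under 0.05, open points do not, and black bars are list medians. The class I genes lie between -0.12 and 0.16, and all 20 type I IFN-induced genes lie below 0.

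Class I genes are expressed by most nucleated cells, and leukocytes and endothelium are rich in them, so markers of the cells of the lung are given beside these results. In whole tissue, fewer cells of a type and less RNA per cell cannot be told apart. The pan-leukocyte list summed to 912 to 971 CPM in R/R and 928 to 1091 CPM in WT lungs, with 6 of 8 genes below 0 and none called by edgeR (3 lower at an unadjusted p under 0.05, 1 called by DESeq2 and 2 by the exact test). B cell markers summed to 106 to 145 CPM in R/R and 190 to 239 CPM in WT lungs. In all 8 the genotypes did not overlap, each with R/R lower, against 9.50% of all tested genes. All 8 were below 0 and 4 were called lower, among them *Ms4a1* and *Pax5*, against 1.10% of all tested genes. This count was 2 with limma-voom, without replicate 2 or 3 of R/R, and without replicate 1 or 2 of WT. It was 6 with DESeq2, with the exact test and without WT replicate 3. With the replicate number as a block or with no filter it was 8. T cell markers summed to 43.2 to 51.8 CPM in R/R and 58.8 to 74.5 CPM in WT lungs, with 7 of 8 below 0 and none called by edgeR (4 lower at an unadjusted p under 0.05, 2 called by each of DESeq2 and the exact test). In 7 of these 8 the genotypes did not overlap, each with R/R lower, against the same 9.50%.

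Alveolar macrophage markers summed to 963 to 1079 CPM in R/R and 682 to 855 CPM in WT lungs. In 5 of the 8 genes the genotypes did not overlap, each with R/R higher, against 9.17% of all tested genes. Of the 8 genes 2, *Chil3* and *Mrc1*, were called higher, against 0.648% of all tested genes. This count was 1 with limma-voom, 3 with DESeq2 and 4 with the exact test. It was 0 without any 1 of R/R replicates 1, 2 and 3 and WT replicates 1 and 2, and 4 without WT replicate 3. Alveolar epithelial markers were above 0 in 8 of 8 genes, with a median of 0.23 and *Aqp5* called higher, a call lost without replicate 1 or 2 of either genotype. Endothelial markers summed to 4990 to 5156 CPM in R/R and 4956 to 5640 CPM in WT lungs, with a median of -0.11 and none called by edgeR, DESeq2 or the exact test (1 lower at an unadjusted p under 0.05). Neutrophil markers summed to 109, 77.2 and 75.7 CPM in R/R lungs and 218, 78.5 and 206 CPM in WT lungs, so WT replicate 2 lay among the R/R lungs. The genotypes did not overlap, with R/R lower, in 1 of 6 tested genes, against 9.50% of all tested genes. All 6 were below 0, with a median of -1.01 and an unadjusted edgeR p under 0.05. None was called by edgeR, while DESeq2 called 1, the exact test 2 and edgeR without WT replicate 2 called 5. *Ly6g* and *Camp*, of the same list, had levels near 0 CPM. DESeq2, which kept all 8 genes of the list, had all 8 below 0. For NK cells, monocytes and interstitial macrophages, dendritic cells and fibroblasts, medians were 0.18, -0.04, 0.11 and -0.15, and edgeR called none. With 1 lung left out, the NK cell median ranged from -0.13 (without WT replicate 2, 5 of 8 genes below 0) through 0.029 (without R/R replicate 1) to 0.49 (without WT replicate 1). The monocyte and interstitial macrophage median was 0.008 without R/R replicate 3, and the dendritic cell median ranged from 0.026 (without R/R replicate 1) to 0.21 (without R/R replicate 2). At an unadjusted p under 0.05, 1, 3, 1 and 0 of them were higher and 0, 2, 1 and 3 lower. DESeq2 called 0, 1, 1 and 1 of them and the exact test 1, 0, 1 and 0. The part of these cells in the class I values was not tested.

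The genes through which class I is read were also examined. Of 14 such genes, 5 were above 0 and 9 below, and none was called by edgeR (1 higher and 4 lower at an unadjusted p under 0.05, 1 called by DESeq2 and 3 by the exact test). *Cd8a*, the coreceptor that binds class I on T cells, was at 4.44, 4.78 and 4.12 CPM in R/R lungs and 8.02, 5.85 and 11.8 CPM in WT lungs. The genotypes did not overlap, with R/R lower, and the WT lungs were spread widely (log2 fold change -0.94 ± 0.23 SE, edgeR adjusted p = 0.0721). *Klra8*, an NK receptor of the Ly49 family, was at 3.44, 3.35 and 2.71 CPM in R/R lungs and 1.88, 0.94 and 1.64 CPM in WT lungs (log2 fold change 1.10 ± 0.28 SE, edgeR adjusted p = 0.0839).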

How the data were processed

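RNA-seq was made from the lungs of 3 mice of each genotype, grouped by the sample labels. The authors aligned reads with HISAT2 2.1.0 to GRCm38 and deposited, for each gene, its exon length and the raw count of read pairs (featureCounts 2.0.1, GENCODE annotation). Multi-mapping pairs were not counted and strand was not used. A comment line of the table led an automatic check to misread 1 of the 6 deposited columns, WT replicate 3. Its values, earlier labelled as an expected count, had been counted with featureCounts before deposition as whole raw counts, like the others. All 6 columns are recorded as counts and were used without rounding. The submitters' processing notes name DESeq2. The sources differ on RNA extraction (Trizol or RNeasy columns).

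Of 56262 identifiers, 55141 matched a symbol of the GENCODE annotation of the same assembly. Genes passing filterByExpr (minimum count 10, total 15) were scaled by TMM and compared with edgeR 4.0.16 (R 4.3.3), with SE from the fold change and F statistic. Ratios used exact permutation. Alternatives were DESeq2 1.42.0, limma-voom (limma 3.58.1), the exact test, other scalings and filters, a replicate block and each lung left out. Fits were tested on simulated data. The members and lists were chosen with earlier results of these data known. Named genes are the 10 members, *Psmb5*, *Psmb6*, *Psmb7*, *Rbm47*, *Irf1*, *Ifng*, and, from each list, called genes and up to 4 with the largest absolute fold change at a mean log2 CPM of at least 1; some of these are not reported here, and *Ly6g* and *Camp* were named after their values were seen. Intervals of fold changes use the SE of the edgeR fit, so they include the spread between the lungs of a genotype.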

Additional observations from a re-analysis of the deposited data

How the results depend on the processing

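No member was called under any of the alternatives run, and the median log2 fold change of the members lay between 0.067 and 0.074 under the other tools, scalings, filters and the block, and between 0.02 and 0.09 with one lung left out. The lowest adjusted p of *H2-K1* was 0.202 with DESeq2 and 0.184 without R/R replicate 3. The number of genes called, 300, was 529 with DESeq2, 630 with the exact test and 1109 with no filter beyond 1 count, and ranged from 65 to 621 with one lung left out. The cause was not tested. With one lung left out the log2 fold change changed sign for *B2m* (-0.016 to 0.10), *Nlrc5* (-0.13 to 0.10), *Psmb10* (-0.019 to 0.065), *Psmb7* (-0.037 to 0.12) and *Serpina3g* (-0.43 to 0.061), and for the log2 differences of *Psmb9* over *Psmb6* (-0.059 to 0.077) and *Psmb10* over *Psmb7* (-0.14 to 0.094). Same-numbered R/R and WT lungs did not deviate together over all tested genes (correlations of -0.014, -0.0036 and -0.015). With 3 lungs per genotype this cannot show whether they share a litter or a batch, which was not tested. With the replicate block 446 genes and no member were called. Among the 1413 alternative values of genes, counts and ratios, 14 reversed, and all 14 came with one lung left out. Without a change of sign, genes gained a call in 98 of these values and lost it in 43. The number of genes called over the whole table changed markedly in 9. Medians of the other lists are not among these values, and those of IFN-γ-induced genes, NK cells, class I regulators (-0.026, and 0.010 without WT replicate 2) and monocytes and interstitial macrophages also changed sign with one lung left out.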
